A study of Caenorhabditis elegans with 12 samples.

Results

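The genes described here are *polg-1*, *twnk-1*, *mtss-1*, *hmg-5* and *rpom-1*, which encode proteins that copy, package or transcribe the mitochondrial genome (mtDNA) of *C. elegans*. They were picked by name from the table of counts, and all 5 were found among its 46739 genes. Earlier results of these data were known at that choice, so the number of them called is no independent evidence. Transcripts were measured by RNA-seq of whole worms at the L4 stage, the last larval stage, in 2 experiments with 3 libraries per group. The groups were *atfs-1(et18)* with the wild-type strain N2 of experiment 2, and *atfs-1(null)* with the wild-type strain N2 of experiment 1. All worms had the N2 background and were grown at 20 °C. ATFS-1 is the transcription factor of the mitochondrial unfolded protein response. *atfs-1(et18)* worms have an amino acid substitution in its mitochondrial targeting sequence, which leaves the response switched on, and *atfs-1(null)* worms lack the whole *atfs-1* reading frame. Each strain is a single allele, and each was set only against the wild type of its own experiment.

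Mitochondria keep their own small circular genome, which is copied by proteins that the nucleus encodes and the cytosol makes. A dedicated DNA polymerase, POLG, works at a fork that the Twinkle helicase opens and that single-stranded DNA-binding protein keeps apart. TFAM, an HMG-box protein, coats mtDNA and packs it into nucleoids, and a phage-like RNA polymerase transcribes it. In *C. elegans* most mtDNA of the adult lies in the germ line, and in somatic tissues its amount differs with the energy demand of the cell type.

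Total counts per library ranged from 24090660 to 37050803. *atfs-1* itself, at chromosome V from 14193685 to 14197698 in WBcel235, was counted at 27, 22 and 19 reads in the *atfs-1(null)* libraries, against 1558, 1104 and 1425 in their wild type. In *atfs-1(et18)* libraries, *atfs-1* had 86.4, 96.8 and 88.3 CPM (counts relative to the library size, corrected by its TMM factor), against 75.7, 61.2 and 62.5 CPM in wild type. The labels of the null strain thus fit the counts. A pair of libraries stood apart. Counts of *atfs-1(et18)* replicate 2 differed from those of the other replicates of the strain by a chi-square of 115 and 108 per gene, against 9.54 between those replicates. For *atfs-1(null)* replicate 3 these values were 132 and 138, against 23.4 between the other replicates. Sampling noise alone would give about 1, so every library counted as its own replicate. Each result for the 5 genes within a strain is also given without that strain's library.

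Markers of every tissue searched were present, as whole worms should show. Markers of the germ line, intestine and muscle moved with the null strain, and those of muscle also with *atfs-1(et18)*, where the hypodermal sum was lower too. All 8 germ cell and oocyte markers were higher in *atfs-1(null)*, with a summed level of 3128 to 5518 CPM, against 571 to 1039 CPM in wild type. Of 6 intestinal markers, 5 were lower in *atfs-1(null)*, with a summed level of 1597 to 1888 CPM, against 5035 to 6304 CPM in wild type. Of 28 sperm genes tested, 27 were higher in *atfs-1(null)* (summed 596 to 1440 CPM, against 68.8 to 166 CPM in wild type), as were all 6 vitellogenin genes. The vitellogenin genes summed to 11128 to 31287 CPM in *atfs-1(null)*, against 696 to 2237 CPM in wild type. Body wall muscle markers were called lower in 4 of 5 cases in each strain, with sums of 7175 to 8544 CPM in *atfs-1(et18)*, against 10674 to 12438 CPM in wild type, and of 6148 to 7916 CPM in *atfs-1(null)*, against 10077 to 10450 CPM in wild type. The part of these tissues in the results below was not tested. Of 4 hypodermal markers 2 were called lower in *atfs-1(null)*, although their sums overlapped, at 737 to 1703 CPM against 1084 to 1532 CPM in wild type. In *atfs-1(et18)* none of them was called with edgeR and 1 was with DESeq2. Their sums there did not overlap, at 783 to 1556 CPM against 1790 to 2411 CPM in wild type, and their median log2 fold change was -0.70. Of 5 neuronal markers 2 were called lower in *atfs-1(et18)* and 3 in *atfs-1(null)*. These marker counts stand beside 32.9% of all genes called higher and 35.4% lower in *atfs-1(null)*. In *atfs-1(et18)* the shares were 9.42% and 7.51%. In *atfs-1(et18)* none of the germ cell markers, sperm genes or vitellogenin genes passed the test with edgeR, and none did at an unadjusted p under 0.05 or with DESeq2. Their median log2 fold changes were 0.31, 0.47 and 1.19, so the absence of calls does not show equal levels. Vitellogenin genes summed to 3296 to 21939 CPM, against 1348 to 7519 CPM in wild type, with the highest value in replicate 2. The germ cell markers summed to 936 to 2281 CPM, against 1038 to 1342 CPM in wild type, with the highest value in replicate 2. No marker was at 0 in all libraries of a group, apart from 1 sperm gene in the wild type of each experiment. In whole worms, fewer cells of a type and less RNA per cell cannot be told apart.

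The transcripts of the 5 genes differed widely in abundance. Scaled per kilobase of exon (RPKM, which is CPM divided by exon length in kilobases), *mtss-1* was the most abundant in every group and *twnk-1* the least. *mtss-1* had 112 ± 12.6 RPKM in *atfs-1(et18)* and 87.2 ± 3.17 in its wild type (SD, n = 3), and 72.7 ± 10.5 in *atfs-1(null)* and 96.3 ± 4.79 in its wild type. *polg-1* was next to last everywhere, with 11 ± 0.199 RPKM in *atfs-1(et18)* and 5.60 ± 0.0698 in its wild type, and 9.79 ± 2.25 in *atfs-1(null)* and 5.95 ± 0.123 in its wild type (SD, n = 3). *hmg-5* and *rpom-1* lay between them, and their order was not the same in all groups. Their RPKM ranges overlapped in *atfs-1(et18)* (32.7 ± 4.64 for *hmg-5* and 29.7 ± 2.43 for *rpom-1*) and in the wild type of experiment 1 (20.9 ± 3.1 and 21.2 ± 0.666). *hmg-5* was above *rpom-1* in all libraries of the wild type of experiment 2 (27 ± 0.463 against 17.8 ± 0.519 RPKM) and of *atfs-1(null)*, where it reached 56.5 ± 12 against 20.3 ± 1.77 RPKM and overlapped the range of *mtss-1*. All other neighbours in the order were apart in every library. Scaling by library size alone left the order unchanged in 4 of 4 groups.

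**Figure D1:**
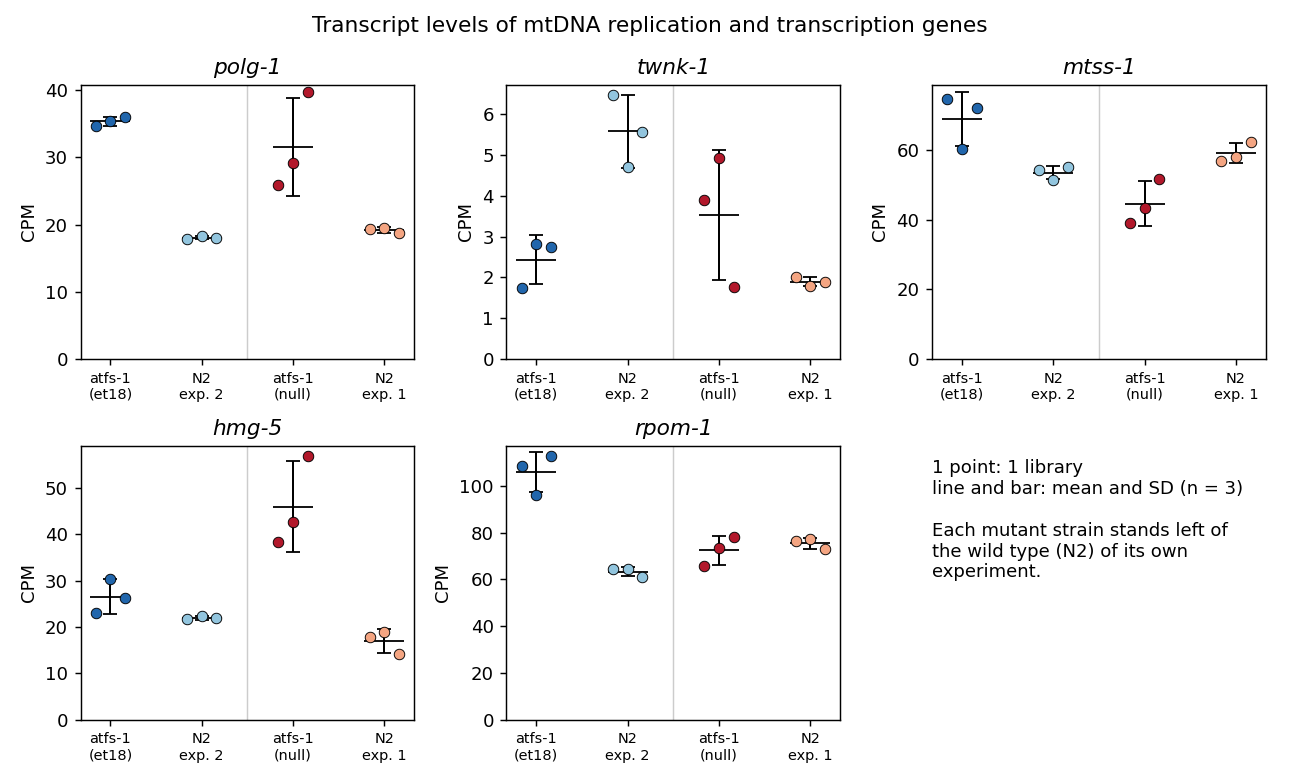
Transcript levels of *polg-1*, *twnk-1*, *mtss-1*, *hmg-5* and *rpom-1* in CPM (vertical axis, linear from 0) in *atfs-1(et18)*, N2 of experiment 2, *atfs-1(null)* and N2 of experiment 1. Each point is a library, and the line and bar are the mean and SD (n = 3); *polg-1* lies above its wild type in all 6 mutant libraries, whereas *twnk-1* lies below it in *atfs-1(et18)*, and its *atfs-1(null)* libraries spread from 1.77 to 4.92 CPM.

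To examine how the mtDNA replication and transcription genes were expressed when ATFS-1 is constitutively active, *atfs-1(et18)* worms were compared with their wild type. *polg-1* and *rpom-1* rose, 1.96-fold and 1.67-fold, and *twnk-1* fell, while *mtss-1* and *hmg-5* did not pass the test. Thus 2 of the 5 genes were called higher and 1 lower, where 9.42% and 7.51% of the 15639 genes tested were called in these directions (edgeR's quasi-likelihood test, Benjamini-Hochberg adjusted p under 0.05 over all genes tested). In either direction this was 3 of 5 genes, beside 16.9% of all genes. The groups did not overlap for any of the 5 genes, with 4 higher and 1 lower, and they did not overlap for 42.5% of all genes tested, 22.9% higher and 19.6% lower.

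*polg-1*, which encodes the catalytic subunit of the mtDNA polymerase (WBGene00013258, chromosome II from 12189877 to 12199959, minus strand, 3219 exon bases), had 34.7, 35.3 and 36 CPM in *atfs-1(et18)*, against 17.8, 18.3 and 18.0 CPM in wild type. The 3 mutant libraries were nearly equal and all far above the wild-type libraries. Its log2 fold change was 0.97 (standard error 0.09, 95% interval 0.76 to 1.18, adjusted p = 0.00159 from edgeR). It stayed between 0.96 and 0.98 whichever library was left out, and was 0.97 without *atfs-1(et18)* replicate 2.

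*rpom-1*, the gene of the mitochondrial RNA polymerase (WBGene00013680, chromosome I from 14552095 to 14565844, minus strand, 3564 exon bases), had 109, 96.1 and 113 CPM in *atfs-1(et18)*, against 64.4, 64.4 and 61.2 CPM in wild type. All mutant libraries were higher, and replicate 2 was the lowest of them. On the log2 scale this was a rise of 0.74 (standard error 0.09, 95% interval 0.53 to 0.95, adjusted p = 0.00380 from edgeR), and 0.81 without *atfs-1(et18)* replicate 2.

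*twnk-1*, which encodes the replicative helicase Twinkle (WBGene00018514, chromosome X from 5791703 to 5797328, plus strand, 2100 exon bases), was counted at 41, 69 and 74 reads in *atfs-1(et18)*, against 234, 129 and 167 reads in wild type. The lowest of these counts, 41, has an exact 95% Poisson interval of 29.4 to 55.6, and the highest, 234, of 205 to 266; these intervals cover counting error only. In CPM the values were 1.75, 2.82 and 2.75 in *atfs-1(et18)* and 6.48, 4.70 and 5.55 in wild type, so that every mutant library was below every wild-type library. In log2 terms the fold change was -1.19 (standard error 0.25, 95% interval -1.80 to -0.59, adjusted p = 0.0246 from edgeR). It passed without *atfs-1(et18)* replicate 2 (-1.30, adjusted p = 0.0151 from edgeR) but no longer passed without any other library of the experiment, with log2 fold changes between -1.30 and -1.02 and adjusted p between 0.0507 and 0.105.

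*mtss-1*, the gene of the mitochondrial single-stranded DNA-binding protein (WBGene00019800, chromosome III from 8768311 to 8769252, plus strand, 615 exon bases), had 74.9, 60.3 and 72.2 CPM in *atfs-1(et18)*, against 54.4, 51.4 and 55.1 CPM in wild type. The mutant libraries were all higher, with replicate 2 nearest to wild type. The log2 fold change of 0.37 (standard error 0.10, 95% interval 0.12 to 0.62) did not pass (adjusted p = 0.0580 from edgeR). It passed when replicate numbers entered the fit as a block (0.36, adjusted p = 0.0498 from edgeR). The block treats same-numbered libraries as pairs, although the labels only number them. The change also passed without *atfs-1(et18)* replicate 2 (0.46, adjusted p = 0.00417 from edgeR).

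*hmg-5*, the worm homolog of TFAM (WBGene00001975, chromosome IV from 7644890 to 7646219, minus strand, 813 exon bases), had 22.9, 30.5 and 26.3 CPM in *atfs-1(et18)*, against 21.6, 22.4 and 21.9 CPM in wild type. Although the mutant libraries were all higher, the lowest lay just above the highest wild-type library. The log2 fold change was 0.27 (standard error 0.13, 95% interval -0.04 to 0.59, adjusted p = 0.191 from edgeR), and 0.17 without replicate 2, the library with the most *hmg-5* and the highest sum of germ cell markers. That library also had the highest vitellogenin sum of the strain, 21939 CPM. The part of germ cells or other tissues in these values was not tested.

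Next, *atfs-1(null)* worms were compared with their wild type to see the same genes in the absence of ATFS-1. *hmg-5* and *polg-1* rose, 2.71-fold and 1.64-fold, *mtss-1* fell to 0.755 of the wild-type level, and *twnk-1* and *rpom-1* did not pass. Thus 2 of the 5 genes were called higher and 1 lower. In this strain 32.9% of the 15620 genes tested were called higher and 35.4% lower, so the count of 3 called genes stands beside 68.3% of all genes called in either direction, and reads as nothing particular to the 5 genes. The groups did not overlap for 3 of the 5 genes, with 2 higher and 1 lower, and for 74.2% of all genes tested, 34.5% higher and 39.7% lower.

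*hmg-5* had 38.3, 42.6 and 57.0 CPM in *atfs-1(null)*, against 17.9, 18.9 and 14.1 CPM in wild type. Every null library had more than any wild-type library, with replicate 3 the highest. The log2 rise was 1.44 (standard error 0.19, 95% interval 0.98 to 1.90, adjusted p = 0.000791 from edgeR), and 1.24 without *atfs-1(null)* replicate 3 (adjusted p = 0.000472 from edgeR). The *hmg-5* exons share 7 bases, 0.861% of their length, with those of the neighbouring gene *nrde-4* on the same strand, whose span overlaps the start of *hmg-5*. *nrde-4*, examined after its values were seen, had 73.5, 82.6 and 106 CPM in *atfs-1(null)*, against 48.0, 49.1 and 40.1 CPM in wild type, which is 0.93 on the log2 scale (adjusted p = 0.00216 from edgeR). Both genes were thus highest in replicate 3 of the null strain and lowest in replicate 3 of its wild type.

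The same libraries had the highest and the lowest sum of germ cell markers, 5518 CPM in *atfs-1(null)* replicate 3 and 571 CPM in wild-type replicate 3. They also had the highest and the lowest sum of vitellogenin genes, 31287 and 696 CPM. The part of germ cells or other tissues in the *hmg-5* result was not tested.

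*polg-1* had 25.8, 29.1 and 39.7 CPM in *atfs-1(null)*, against 19.4, 19.4 and 18.7 CPM in wild type. The null libraries were all higher but unequal, and replicate 3 was again the highest. The log2 rise was 0.72 (standard error 0.18, 95% interval 0.30 to 1.14, adjusted p = 0.00969 from edgeR), and 0.51 without *atfs-1(null)* replicate 3 (adjusted p = 0.00433 from edgeR). It passed in each fit that left out a library, with adjusted p between 0.00433 and 0.0391.

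*mtss-1* had 39.0, 43.4 and 51.8 CPM in *atfs-1(null)*, against 56.9, 58.1 and 62.5 CPM in wild type. The null libraries were all lower than the wild-type libraries. In log2 terms the fold change was -0.40 (standard error 0.13, 95% interval -0.71 to -0.10, adjusted p = 0.0278 from edgeR). This call depended on the scaling, being -0.30 (adjusted p = 0.150 from edgeR) with RLE size factors and -0.16 (adjusted p = 0.228 from edgeR) with library size alone. It was also lost with DESeq2 (-0.29, adjusted p = 0.216) and with no filter on low counts (-0.30, adjusted p = 0.130 from edgeR). Of 13 alternative fits, it passed in 4. Library size alone moved the all-gene median to 0.21 on the log2 scale, against -0.04 with TMM; relative to that median, *mtss-1* was at -0.36 with both scalings. The call also went when any library but *atfs-1(null)* replicate 3 was left out (-0.44 to -0.28, adjusted p 0.0644 to 0.157 from edgeR), whereas without replicate 3 it was -0.54 (adjusted p = 0.00255 from edgeR).

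*twnk-1* was counted at 131, 171 and 60 reads in *atfs-1(null)*, against 66, 48 and 55 reads in wild type. In CPM these were 3.89, 4.92 and 1.77 in *atfs-1(null)* and 2.00, 1.79 and 1.89 in wild type. Replicates 1 and 2 of the null strain were clearly above wild type. Replicate 3 was the lowest of the strain and close to wild type, and its place depended on the scaling. At 1.77 CPM it was just under the lowest wild-type library, 1.79 CPM. With library size alone it was 1.861 CPM, against 1.862, 1.665 and 1.697 CPM in wild type. Its 60 reads have an exact 95% Poisson interval of 45.8 to 77.2. Replicate 3 also had the lowest sum of sperm genes in the strain, 596 CPM, against 1274 and 1440 CPM in replicates 1 and 2. In *atfs-1(et18)*, replicate 1 was likewise lowest in both (196 CPM of sperm genes). In the wild type of experiment 2, replicate 1 had the lowest sperm sum, 190 CPM, and the most *twnk-1*, 6.48 CPM. In that of experiment 1, replicate 2 had the highest sperm sum, 166 CPM, and the least *twnk-1*, 1.79 CPM. The part of sperm in the *twnk-1* values was not tested. The log2 fold change of 0.89 (standard error 0.37, 95% interval 0.02 to 1.76) did not pass (adjusted p = 0.0652 from edgeR), but it was 1.20 (adjusted p = 0.00171 from edgeR) without *atfs-1(null)* replicate 3. It also passed with DESeq2 (0.98, adjusted p = 0.0219) and with RLE size factors (0.97, adjusted p = 0.0365 from edgeR).

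*rpom-1* had 65.6, 73.6 and 78.1 CPM in *atfs-1(null)*, against 76.6, 77.1 and 72.8 CPM in wild type. The groups overlapped, and the means differed by less than the spread between libraries. In log2 terms it was -0.06 (standard error 0.10, 95% interval -0.30 to 0.18, adjusted p = 0.621 from edgeR), and it was 0.19 with library size alone. Relative to the median of all genes it was -0.02 with either scaling, and without *atfs-1(null)* replicate 3 it was -0.13 (adjusted p = 0.190 from edgeR).

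**Figure D2:**
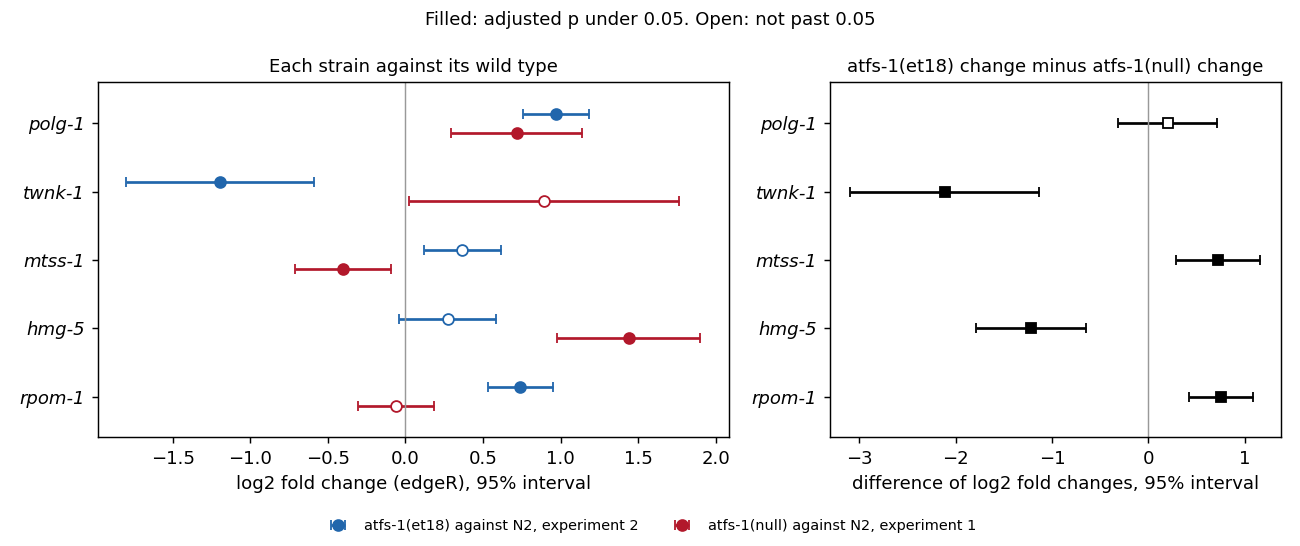
Left, log2 fold change of each gene in *atfs-1(et18)* and in *atfs-1(null)*, each against its own wild type; right, the change in *atfs-1(et18)* minus that in *atfs-1(null)*. Horizontal bars are 95% intervals from edgeR, and filled symbols have an adjusted p under 0.05; *polg-1* was positive in both strains, and the difference was past the threshold for the other 4 genes.

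To ask whether the strains differed, the change in *atfs-1(null)* was subtracted from that in *atfs-1(et18)* in a fit of all 12 libraries. The difference was past the threshold for 4 of the 5 genes, and it was for 49% of the 16188 genes tested. Of the 4, 2 were positive and 2 negative, beside 26.1% and 22.9% of all genes. It was positive for *rpom-1* at 0.75 (standard error 0.15, adjusted p = 0.00272 from edgeR) and for *mtss-1* at 0.72 (standard error 0.20, adjusted p = 0.0127 from edgeR). It was negative for *twnk-1* at -2.11 (standard error 0.45, adjusted p = 0.00345 from edgeR) and for *hmg-5* at -1.22 (standard error 0.26, adjusted p = 0.00360 from edgeR). These 4 kept their sign and passed whichever of the 12 libraries was left out.

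*polg-1* was the only member called higher in both strains, and 2.62% of the 15257 genes tested in both were. Its difference was 0.20 (standard error 0.23, 95% interval -0.31 to 0.71, adjusted p = 0.485 from edgeR). Without *atfs-1(null)* replicate 3 the difference was 0.45 and passed (adjusted p = 0.0135 from edgeR).

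Since each strain was grown in a different experiment, strain and experiment cannot be told apart in these differences, and the wild types themselves were compared, a comparison added after the values had been seen. *twnk-1* had 6.48, 4.70 and 5.55 CPM in the wild type of experiment 2, against 2.00, 1.79 and 1.89 CPM in that of experiment 1. The 3 *atfs-1(et18)* libraries, at 1.75 to 2.82 CPM, overlapped the wild type of experiment 1. The log2 difference between the wild types, in the fit of 12 libraries, was 1.5 (standard error 0.32, adjusted p = 0.00999 from edgeR), past the threshold like 19% of all genes tested, 7.9% higher and 11.1% lower. For *polg-1*, *mtss-1*, *hmg-5* and *rpom-1* it was -0.14, -0.20, 0.32 and -0.31, and none of these passed (adjusted p 0.0683 to 0.55 from edgeR). The CPM ranges of the wild types did not overlap for any of the 5 genes, with *twnk-1* and *hmg-5* higher in experiment 2 and *polg-1*, *mtss-1* and *rpom-1* lower in it, and they did not for 56% of all genes tested, 29.7% higher and 26.3% lower. CPM values were scaled within each experiment, so these levels across experiments also carry the scaling.

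A ratio of 2 transcripts within a library does not depend on how libraries are scaled, so each other gene was also expressed relative to *polg-1*, per kilobase of exon. In *atfs-1(et18)* the ratio of *mtss-1* to *polg-1* was 8.93 to 11.3, against 14.7 to 16 in wild type. For *hmg-5* the ratio was 2.62 to 3.41 in *atfs-1(et18)* and 4.81 to 4.85 in wild type, and for *rpom-1* it was 2.46 to 2.83 in *atfs-1(et18)* and 3.07 to 3.27 in wild type. All 3 ratios were thus lower in every *atfs-1(et18)* library, as was that of *twnk-1*, at 0.0771 to 0.122 against 0.395 to 0.558 in wild type. *polg-1* itself rose by 0.97 on the log2 scale, more than any other member, so a lower ratio is not by itself a lower level. *rpom-1*, *mtss-1* and *hmg-5* were at 0.74, 0.37 and 0.27, and *twnk-1* was at -1.19.

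In *atfs-1(null)* the ratio of *mtss-1* to *polg-1* was 6.83 to 7.92, against 15.4 to 17.5 in wild type. That of *rpom-1* was 1.78 to 2.30 in *atfs-1(null)*, against 3.51 to 3.59 in wild type. By contrast, that of *hmg-5* was 5.69 to 5.88 in *atfs-1(null)*, against 2.98 to 3.86 in wild type. The ratio of *hmg-5* to *polg-1* was therefore shifted upward in every null library, by 0.74 on the log2 scale, and downward in every *atfs-1(et18)* library, by -0.71, and varied little over the 3 null libraries (SD 0.02 on the log2 scale), replicate 3 included. The *twnk-1* ratio overlapped between the groups. In *atfs-1(null)*, *polg-1* itself rose by 0.72 on the log2 scale, with *hmg-5* at 1.44, *rpom-1* at -0.06 and *mtss-1* at -0.40. An exact two-sided permutation test of 3 against 3 libraries cannot go below p = 0.10; 7 of the 8 ratios reached that value (adjusted p = 0.114 over 8), and the *twnk-1* ratio in *atfs-1(null)* gave p = 1.

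**Figure D3:**
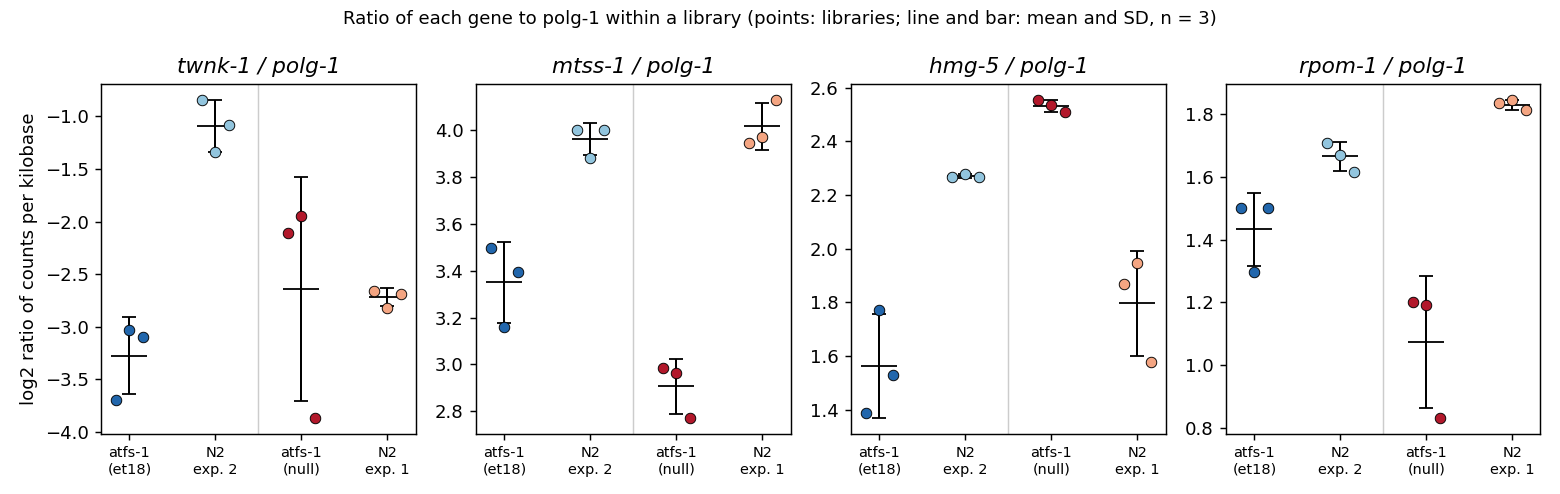
Log2 ratio of the counts per kilobase of *twnk-1*, *mtss-1*, *hmg-5* and *rpom-1* to those of *polg-1* within each library, by group. Points are libraries, and the line and bar are the mean and SD (n = 3). The *hmg-5* ratio is lower in *atfs-1(et18)* than in its wild type and higher in *atfs-1(null)* than in its wild type. Those of *mtss-1* and *rpom-1* are lower in both strains. *polg-1*, by which all are divided, was itself higher in both strains.

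The rest of the pathway was described with 17 nuclear genes of mtDNA maintenance. In *atfs-1(et18)*, 11 of the 17 were called higher (10 with a replicate block) and none lower, with a median log2 fold change of 0.75, against 0.07 over all genes tested (without *atfs-1(et18)* replicate 2, 13 were higher and the median was 0.58). At an unadjusted p under 0.05 none was lower either, and DESeq2 also called none lower. In *atfs-1(null)*, 9 were called higher and 3 lower, with a median of 0.54, against -0.04 over all genes (without *atfs-1(null)* replicate 3, 9 higher and 4 lower, median 0.28). The shares called can be read against 9.42% higher in *atfs-1(et18)*, and 32.9% higher and 35.4% lower in *atfs-1(null)*. The whole list was chosen with earlier results of these data known, so its shares and directions are no independent evidence. The same holds for the lists of mtDNA-encoded genes and nuclear replication genes below. Of the 17 maintenance genes, *C27H6.9* and *R05D3.12* had been listed by the study from these samples, and both were higher in both strains.

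By role, the genes of mitochondrial transcription and RNA (*tfbm-1*, *mma-1*, *hoe-1* and *C08F8.2*) were all 4 called higher in *atfs-1(et18)*, and 1 of 4 in *atfs-1(null)*. With a replicate block *mma-1* was no longer called in *atfs-1(et18)* (0.25, adjusted p = 0.0733 from edgeR). *C08F8.2* had 76.7, 75.4 and 75.9 CPM in *atfs-1(et18)*, against 43.2, 43.7 and 42.0 CPM in wild type, and changed by 0.82 on the log2 scale (adjusted p = 0.00126 from edgeR). *tfbm-1*, of the mitochondrial transcription factor B family, was higher in both strains, by 0.94 in *atfs-1(et18)* (adjusted p = 0.00669 from edgeR) and 0.85 in *atfs-1(null)* (adjusted p = 0.00618 from edgeR). For 2 of these 4 genes the strains differed past the threshold, beside 49% of all genes.

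Of 3 nucleoid and protease genes, 2 were called higher in *atfs-1(et18)* and 2 lower in *atfs-1(null)*. *atad-3*, an ATPase of the inner membrane that is found with nucleoids, had 326, 257 and 299 CPM in *atfs-1(et18)*, against 147, 146 and 143 CPM in wild type. In *atfs-1(null)* it had 88.8, 91.9 and 129 CPM, against 224, 193 and 222 CPM in wild type. Its log2 fold changes were 1.02 (standard error 0.10, adjusted p = 0.00205 from edgeR) and -1.05 (standard error 0.16, adjusted p = 0.00133 from edgeR). *lonp-1*, which encodes the matrix protease that degrades TFAM in mammals, changed by 0.91 in *atfs-1(et18)* (adjusted p = 0.000913 from edgeR) and by -0.34 in *atfs-1(null)* (adjusted p = 0.0371 from edgeR). The endonuclease G gene *cps-6* was likewise higher in *atfs-1(et18)* at 0.75 (adjusted p = 0.00356 from edgeR) and lower in *atfs-1(null)* at -0.49 (adjusted p = 0.00326 from edgeR).

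Of 5 nuclease and repair genes, 1 was called higher in *atfs-1(et18)*, and 3 higher and 1 lower in *atfs-1(null)*, where 68.3% of all genes were called. The AP endonuclease gene *exo-3* rose by 1.71 in *atfs-1(null)* (adjusted p = 0.000293 from edgeR), and was at 0.20 in *atfs-1(et18)* (adjusted p = 0.580 from edgeR). Of 3 deoxynucleotide genes, 2 were called higher in *atfs-1(et18)* and 3 in *atfs-1(null)*. *dut-1* (dUTPase) and *rnr-2* (ribonucleotide reductase small subunit) rose in both strains, and *rnr-1*, of the large subunit, was at 0.19 in *atfs-1(et18)* (adjusted p = 0.179 from edgeR). *dut-1* had 48.5, 102 and 54.3 CPM in *atfs-1(et18)*, against 27.4, 31.2 and 29.3 CPM in wild type, and 101, 117 and 201 CPM in *atfs-1(null)*, against 32.2, 32.7 and 26.2 CPM in wild type. Its highest libraries were again *atfs-1(et18)* replicate 2 and *atfs-1(null)* replicate 3. *rnr-2* had 194, 225 and 222 CPM in *atfs-1(et18)*, against 66.7, 69.5 and 68.9 CPM in wild type, which is a log2 change of 1.64 (adjusted p = 0.000277 from edgeR).

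Transcripts of mtDNA itself moved with the strain. All 12 protein genes of mtDNA were lower in *atfs-1(null)*, with log2 fold changes of -1.03 to -0.59 and a median of -0.83, beside 35.4% of all genes called lower and an all-gene median of -0.04. In *atfs-1(et18)* 9 of the 12 were called higher, beside 9.42% of all genes, and over all 12 the values were 0.11 to 0.79 with a median of 0.47 (10 were called higher with a replicate block). Without the libraries that stood apart, 10 were higher in *atfs-1(et18)* and 12 lower in *atfs-1(null)*. The difference between the strains was past the threshold for all 12, beside 49% of all genes. In the wild types, 10 of the 12 were lower in experiment 2 than in experiment 1 (median -0.46), beside 11.1% of all genes.

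As a contrast, 14 genes of nuclear DNA replication, such as *pcn-1* (PCNA) and *mcm-2* to *mcm-7* (the replicative helicase), were all higher in *atfs-1(null)*, with a median of 1.1 and a range of 0.67 to 2.00, where 32.9% of all genes were called higher and the all-gene median was -0.04. In *atfs-1(et18)* none of the 14 passed with edgeR or DESeq2, 1 had an unadjusted p under 0.05, and their median was 0.28. Without *atfs-1(et18)* replicate 2, 1 was called higher and 1 lower with edgeR, and the median was -0.01; with a block for the replicate number, 1 was called higher. The rises of *hmg-5* and *polg-1* in *atfs-1(null)*, 1.44 and 0.72, lay within that range, and the 8 germ cell markers rose in the same libraries. In *atfs-1(et18)*, *polg-1* at 0.97 was above the largest of the 14 values, 0.43. The part of germ cells or other tissues in the *hmg-5* and *polg-1* values of either strain was not tested.

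**Figure D4:**
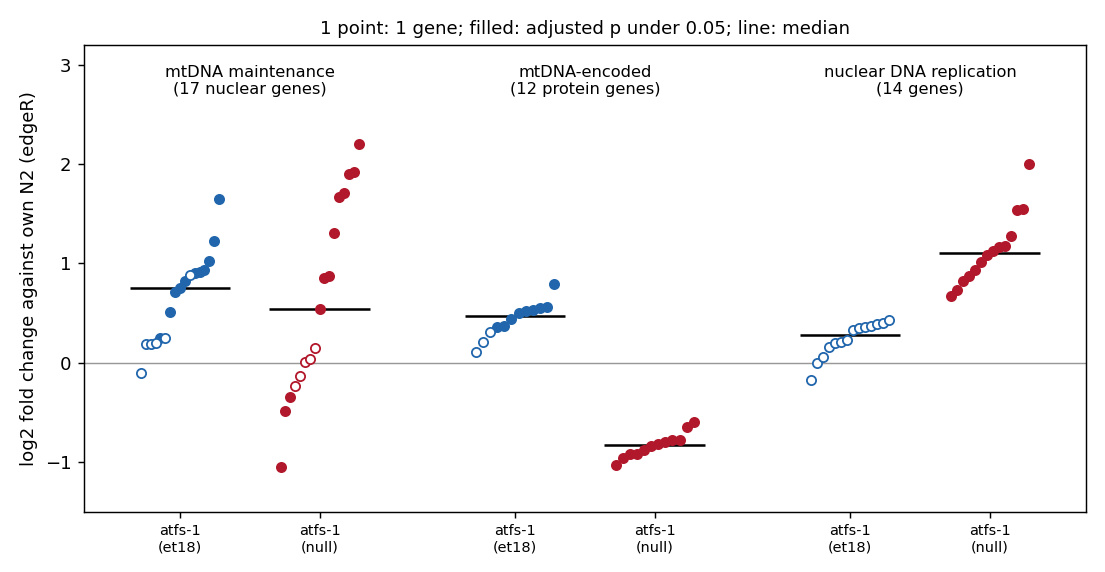
Log2 fold changes in *atfs-1(et18)* and in *atfs-1(null)* of 17 nuclear genes of mtDNA maintenance, the 12 protein genes of mtDNA and 14 genes of nuclear DNA replication, each against its own wild type. Points are genes in ascending order, filled where the adjusted p was under 0.05, and lines are medians; the mtDNA-encoded genes lie above 0 in *atfs-1(et18)* and below 0 in *atfs-1(null)*, and the nuclear replication genes are all filled only in *atfs-1(null)*.

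Finally, the genes nearest in pattern to each member were found as the smallest root mean square difference of log2 CPM over the 12 libraries, each library taken relative to the wild type of its experiment, among 11190 to 11192 candidates whose average log2 CPM was 2 or more. This is a description with no test. For *polg-1* they were *mtg-1* and *tag-307* (0.0843 and 0.0926), for *rpom-1* they were *ZK673.2* and *dars-2* (0.0682 and 0.0751), and for *mtss-1* they were *lipt-1* and *mrpl-38* (0.0610 and 0.0616). *dars-2* encodes a mitochondrial aspartyl-tRNA synthetase, *lipt-1* a lipoyltransferase and *mrpl-38* a protein of the mitochondrial ribosome. For *hmg-5* the nearest were *lat-1*, a latrophilin receptor gene, and *T10E9.1* (0.0735 and 0.0739). For *twnk-1* they were *zig-4*, which encodes a secreted immunoglobulin-domain protein, and *pqn-35* (0.212 and 0.216), the largest distances of these 10 genes. *twnk-1* itself had group means of only 1.90 to 5.58 CPM, and less abundant genes under the cut were not candidates. How far its low counts and the cut set these distances was not tested. Among the members, *mtss-1* and *rpom-1* were nearest to each other (0.268), and *polg-1* and *twnk-1* were farthest apart (1.18).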

How the data were processed

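Whole L4 worms were grown at 20 °C, and total RNA was sequenced as 50-base single reads. The authors deposited raw counts of reads per gene, without normalization, with each gene's exon length. The submitters' processing notes name WBcel235, STAR 2.5.3a, featureCounts, Subread 1.5.2 and edgeR 3.10.0; which annotation release served, whether strand was used and how multiply matching reads were handled are not given in the sources used here. Without strand information, reads of overlapping genes on opposite strands cannot be told apart; of 26 named genes, 6 shared exon bases with another gene, none over 10% of its length.

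The test was that of edgeR 4.0.16 under R 4.3.3 (TMM, default filter at a count of 10 and total of 15, quasi-likelihood test, Benjamini-Hochberg adjustment over all genes tested, threshold 0.05). Each mutant was set against the N2 libraries of the same experiment, and 1 fit of 12 libraries tested how the strains differed. CPM and RPKM used the TMM factors of the own experiment. Alternatives were DESeq2 1.42.0, RLE size factors, library size alone, 2 other filters, 1 fit of all libraries, a replicate block and omission of each library in turn. Python 3.11 with pandas 2.3.3 and scipy 1.17.1 was used for tables and permutation tests.

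Same-numbered libraries of experiment 2 deviated together (correlations 0.55, 0.46 and 0.11 over genes), each over the 0.1 taken to mark pairs, although *atfs-1(et18)* replicate 3 correlated more with N2 replicate 1 (0.35). The values given are from fits without a block, and blocked values stand beside them where a call changed. The study's supplement calls the replicates biologically independent experiments, whereas the labels only number them. The 5 genes and all gene lists were chosen with earlier results of these data known. Named were the 5 genes, *atfs-1*, the gene with the lowest p of each role group in each strain, and the 2 genes nearest in pattern to each member; other list genes in the text were named after their values were seen. Of 19 listed maintenance genes, 2 were not matched by symbol and are not analysed here; 43720 of 46739 genes had a symbol. Measurements other than RNA-seq were not analysed here.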

Additional observations from a re-analysis of the deposited data

Results flagged for a closer look

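The changes of 4 genes differed between the strains by a test of the difference itself in a fit of 12 libraries, each given as the log2 change in *atfs-1(et18)* minus that in *atfs-1(null)*. *twnk-1* differed by -2.11, and its wild-type levels also differed between the experiments. *hmg-5* differed by -1.22, *mtss-1* by 0.72 and *rpom-1* by 0.75. Strain and experiment cannot be told apart in these values. Summed germ cell marker RNA and summed vitellogenin RNA were higher in *atfs-1(null)*, and the part of either in these values was not tested. A test for single outlying values was not run in groups of 3 libraries.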

How the results depend on the processing

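The number of the 5 genes called was 3 in *atfs-1(et18)* (2 to 4 when a library was left out), 3 in *atfs-1(null)* (2 to 4) and 4 in the difference (4 to 5), although *mtss-1* and *twnk-1* changed sides of the threshold in both strains' fits. The cause was not tested. *rpom-1* in *atfs-1(null)* turned to 0.048 with DESeq2, 0.042 with RLE size factors, 0.19 with library size alone, 0.052 with no filter on low counts and, over left-out libraries, ran from -0.13 to 0.041 (without *atfs-1(null)* replicate 1), and *polg-1* between the wild types to 0.030 with library size alone; none of these values passed. The log2 difference of the *twnk-1* ratio to *polg-1* in *atfs-1(null)*, 0.08, ran from -0.27 to 0.69, being -0.19 without *atfs-1(null)* replicate 1 and -0.27 without replicate 2. The difference of *mtss-1* between the strains no longer passed with no filter (0.61, adjusted p = 0.0526 from edgeR). Genes called in *atfs-1(et18)* ran from 833 to 4524 as libraries were left out, against 2648. Library size alone moved the share of calls that were higher in *atfs-1(null)* to 59.8%, against 48.1%.

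With the replicate number as a block, *mtss-1* passed in *atfs-1(et18)*, 1 of 14 nuclear replication genes was called higher (*rpa-2*), against 0 without it, *COX3* of mtDNA was gained and *mma-1* lost; no other call changed among the 5 genes and the listed genes in *atfs-1(et18)* or *atfs-1(null)*. Same-numbered libraries of experiment 1 correlated at -0.05, 0.47 and 0.27, and not every library correlated best with its own number; with the block 11003 genes were called in *atfs-1(null)*, against 10664. Without *atfs-1(et18)* replicate 2, chosen after seeing the data, 1 nuclear replication gene was called higher and 1 lower. Depth limits *twnk-1* most, with 41 to 234 reads a library.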
